A study of Mus musculus with 6 samples.

Results

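The genes described are those of cytochrome P450 families 1 to 4, taken by symbol as Cyp, a family number from 1 to 4, 1 subfamily letter and a gene number. The rule found 75 of the 54232 genes in the count table, all protein-coding, in 21 subfamilies. Pseudogenes and paralogs whose symbol ends in a letter, such as Cyp4a12a, fall outside it. Levels were measured by RNA sequencing in livers of 3 Nogo-/- mice and 3 WT littermates, all 8 weeks old and kept on normal chow. Nogo is made from Rtn4, which encodes a reticulon of the endoplasmic reticulum membrane, and the series names insulin signalling as its question. Which piece of the gene is lost is not given in the sources used here, and neither is the strain or sex of the mice. The libraries are called knockout 1, 2 and 4 and wild type 2, 4 and 11, after the numbers in their labels.

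Cytochromes P450 are heme enzymes that insert an oxygen atom into a substrate, and those of families 1 to 4 sit in the endoplasmic reticulum membrane, where they take electrons from the reductase encoded by Por. In liver, families 1 to 3 oxidise drugs, toxins, steroids, bile acids and arachidonic acid, and family 4 hydroxylates the ends of fatty acids and eicosanoids. Their genes are switched by receptors that sense foreign or fatty compounds (AHR, CAR, PXR and PPAR-alpha), by growth hormone in a sex-dependent way, and by position in the liver lobule, where many are highest around the central vein.

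The libraries held 17568223 to 20902369 counts. Levels are in CPM, the count of a gene relative to library size after TMM scaling, which evens out differences in library make-up; a floor of 3 counts equals 0.139 to 0.199 CPM and covers counting error only. Knockout and wild type were compared with edgeR over all 13304 genes that passed its filter on low counts. Genes with a p under 0.05 after Benjamini-Hochberg adjustment are termed called, and only those are said to have risen or fallen. Each fold change is log2, knockout over wild type, with its standard error (SE). Rtn4, the targeted gene, had 4.63, 8.22 and 4.69 CPM in knockout 1, 2 and 4, against 40.5, 52.8 and 55.97 CPM in wild type 2, 4 and 11 (−3.08 ± 0.26 SE, edgeR adjusted p = 0.00101). Mitochondrially encoded genes took 28.6%, 19.7% and 11.8% of all counts in knockout 1, 2 and 4, against 6.90%, 6.17% and 6.71% in wild type 2, 4 and 11, so this share moved with genotype and was smallest, among the knockouts, in knockout 4. Hepatocyte markers (Alb, Apoa1, Ttr, Serpina1a and Tat) summed to 72453 to 103526 CPM in knockout and 79201 to 96815 CPM in wild type, and 0 of the 5 were called by edgeR. Of other marker lists, sinusoidal endothelium had 4 of 6 genes fall (82.3 to 127 CPM in knockout and 140.2 to 176 CPM in wild type summed), T and NK cells 3 of 4 rise (7.34 to 14.8 CPM in knockout and 2.42 to 3.48 CPM in wild type), and Kupffer and stellate cells 0 of 6 called each. Of these endothelial and T and NK cell genes, Lyve1 and Ccl5 were called in all 6 edgeR fits that left 1 library out. Trbc2 was called in 5 of those fits, Kdr in 4, Clec4g in 3, and Ptprb and Nkg7 in 2. Over all genes edgeR called 2268 of 13304 (17.0%), with 1165 rises (8.76%) and 1103 falls (8.29%). Scaled by library totals, which moves the median of all genes to −0.16, the split was 690 and 1566. An edgeR fit that added the mitochondrial share as a covariate called 0 genes, with 1146 at an unadjusted p under 0.05. The share did not overlap between the genotypes, so this fit cannot tell genotype and share apart, here or for any single gene below.

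Of the 75 P450 genes, 51 passed the filter, 13 had no count in any library, and 11 had a few counts and were not tested. Among the 51 tested, 11 fell and 3 rose in knockout liver, against a background of 8.29% and 8.76% over all tested genes, and 37 were not called. The median log2 fold change of the 51 was −0.14, beside 0.012 over all tested genes. In 23 of the 51 the knockout and wild-type levels did not overlap, 7 being higher and 16 lower in knockout, where 38.9% of all tested genes showed no overlap. Of the 25 members with a mean of at least 100 CPM, 5 were called, all of them falls, where 22.7% of the 1229 genes at that level were called in either direction. Scaled by library totals, 2 members rose and 15 fell. The counts of falls and rises were 3 and 2 without knockout 1, 2 and 2 without knockout 2, 15 and 6 without knockout 4, 3 and 2 without wild type 2, 3 and 1 without wild type 4, and 6 and 2 without wild type 11. With knockout 4 alone against the wild types they were 1 and 0.

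Taken as one pool, the 75 genes made up 1.37%, 1.50% and 1.97% of all counts in knockout 1, 2 and 4, against 2.33%, 2.24% and 2.36% in wild type 2, 4 and 11. The groups did not overlap, and the order among the knockouts was the reverse of that of their mitochondrial shares, which are part of the same total. With mitochondrial counts left out of the total, the pool was 1.92%, 1.86% and 2.24% in knockout 1, 2 and 4, against 2.51%, 2.38% and 2.53% in wild type 2, 4 and 11, again with no overlap. Knockout 2 was then the lowest, so the reverse order did not hold. In CPM the pool was 16473, 14246 and 20952 in knockout 1, 2 and 4. It was 21297, 20940 and 22943 CPM in wild type 2, 4 and 11. On this scale knockout 4 lay just above wild type 4, so the groups overlapped. Within the pool, Cyp2e1 alone took 14.98%, 16.9% and 27.5% in knockout 1, 2 and 4 and 28.98%, 30.4% and 28.8% in wild type 2, 4 and 11, so knockout 1 and 2 stood below the rest and knockout 4 lay just under the wild types. The Cyp2a genes took 12.2%, 11.9% and 7.89% in knockout 1, 2 and 4. In wild type 2, 4 and 11 they took 7.52%, 7.14% and 6.36%, so knockout 1 and 2 stood above the rest. These are shares of 1 pool, so a smaller Cyp2e1 share leaves larger shares to the other genes. The summed Cyp2a level was not called (0.23 ± 0.19 SE, edgeR adjusted p = 0.406). In whole liver, fewer hepatocytes and less P450 RNA per hepatocyte cannot be told apart.

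**Figure D1:**
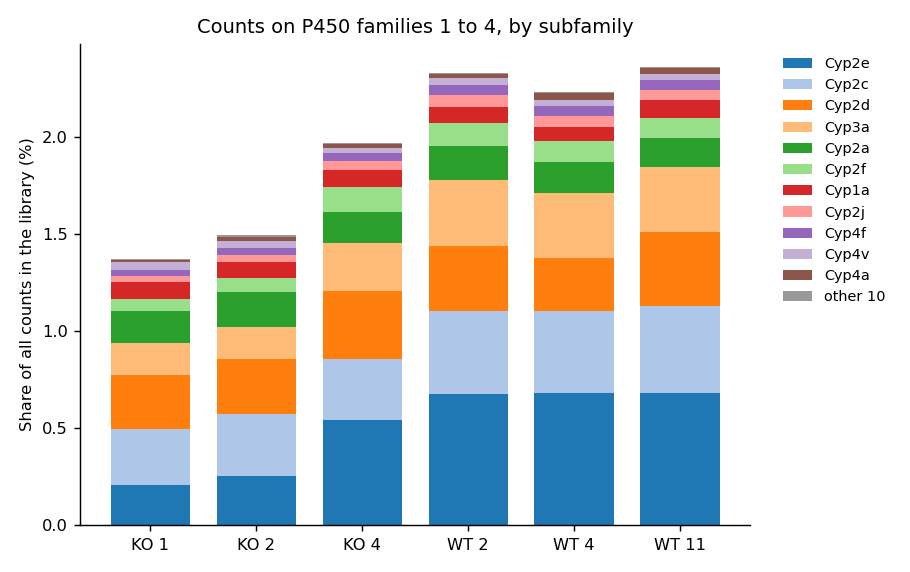
Share of all counts in each library (y axis, %) that fell on P450 genes of families 1 to 4, stacked by subfamily, for the 3 knockout (KO) and 3 wild-type (WT) libraries. The stacks reach 1.37% to 1.97% in knockout and 2.24% to 2.36% in wild type, and the Cyp2e block is the one that differs most in height between knockout 1 and 2 and the other libraries.

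**Figure D2:**
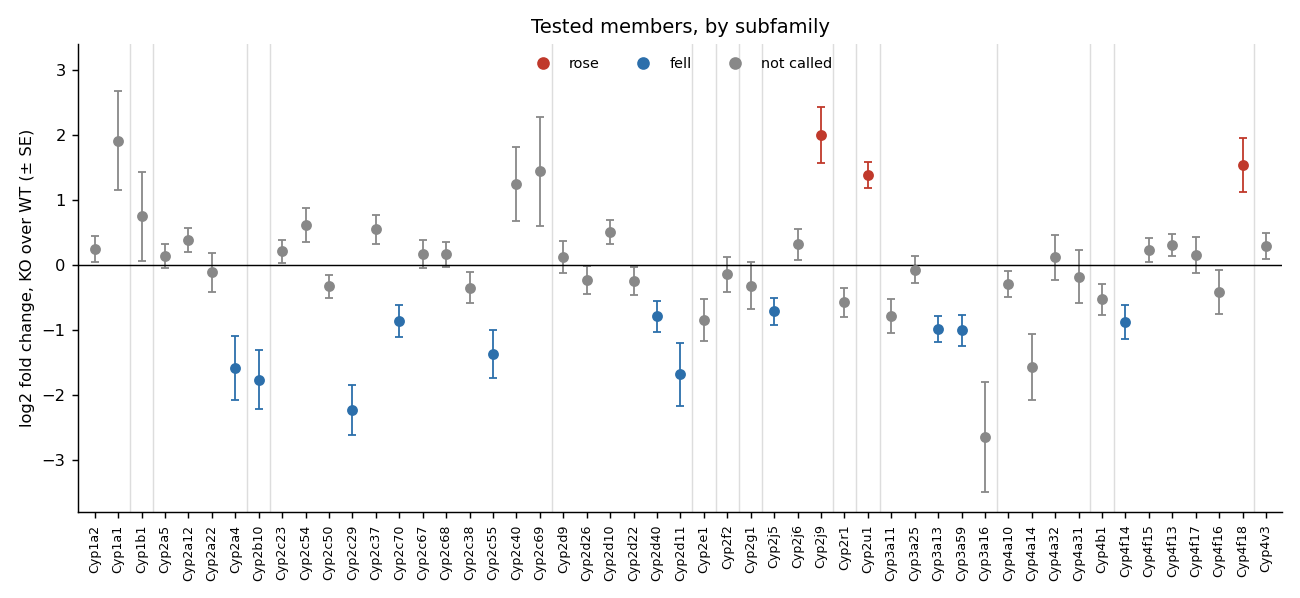
log2 fold change, knockout over wild type, of the 51 tested members with bars of 1 SE, ordered by subfamily and, within it, by level per kilobase. Blue points are the 11 that fell, red points the 3 that rose, and grey points the 37 that were not called; thin vertical lines part the subfamilies.

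**Figure D3:**
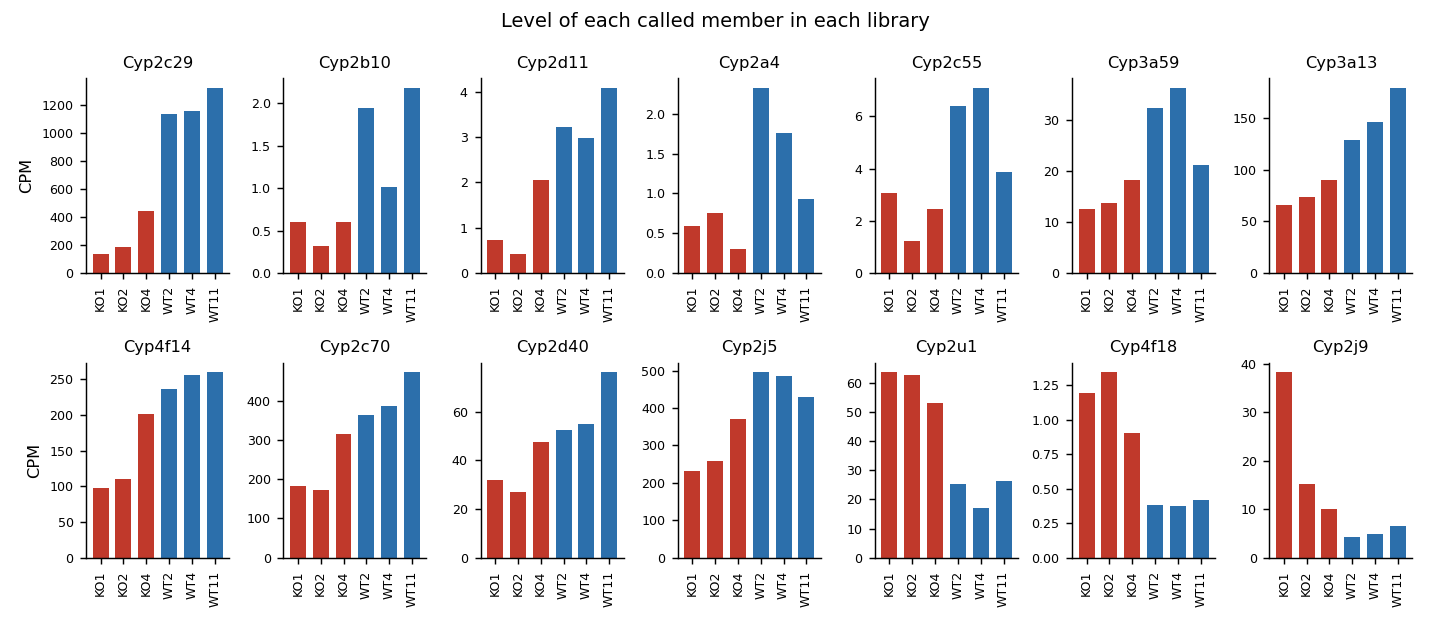
Level (y axis, CPM, each panel with its own scale from 0) of the 14 called members in each library, ordered by fold change, with knockout libraries in red and wild-type libraries in blue. In all 14 the 3 knockout levels lie to 1 side of the 3 wild-type levels, and in 9 of the 11 that fell knockout 4 is the highest of the knockouts.

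The family spanned a wide range of levels. Per kilobase of exon, Cyp2e1, which oxidises ethanol and paracetamol, was highest at a mean of 2299.6 CPM per kb over the 6 libraries. Next came Cyp2d9 (510.5), Cyp2f2 (479), Cyp2a5 (465), Cyp2d26 (449.7), Cyp2d10 (438), Cyp1a2 (431), Cyp3a11 (359), Cyp3a25 (318) and Cyp2c23 (289), all in CPM per kb. None of these 10 was called. Cyp2e1 had 2467, 2414 and 5766 CPM in knockout 1, 2 and 4, against 6171, 6356 and 6602 CPM in wild type 2, 4 and 11. All 3 knockout levels lay below the wild-type levels, but knockout 4 lay close to them and the fold change did not pass (−0.85 ± 0.33 SE, edgeR adjusted p = 0.0975). Without knockout 4 it did (−1.40, adjusted p = 0.000422), and it also passed with DESeq2, limma-voom, library totals and no low-count filter (adjusted p of 0.00237 to 0.0499). With the mitochondrial share as a covariate its fold change was 0.023. Cyp2f2, which bioactivates naphthalene and in liver is known as periportal, had 720.1, 679.5 and 1365 CPM in knockout 1, 2 and 4, against 1057, 982 and 1017 CPM in wild type 2, 4 and 11. Knockout 1 and 2 lay below the wild types and knockout 4 above them (−0.14 ± 0.27 SE, edgeR adjusted p = 0.737); without knockout 4 it was called at −0.55 (adjusted p = 0.0195). Cyp2g1, best known from the nasal lining, had 1.85, 2.47 and 2.71 CPM in knockouts, against 3.80, 3.36 and 1.67 CPM in wild types, with overlap between the groups.

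**Figure D4:**
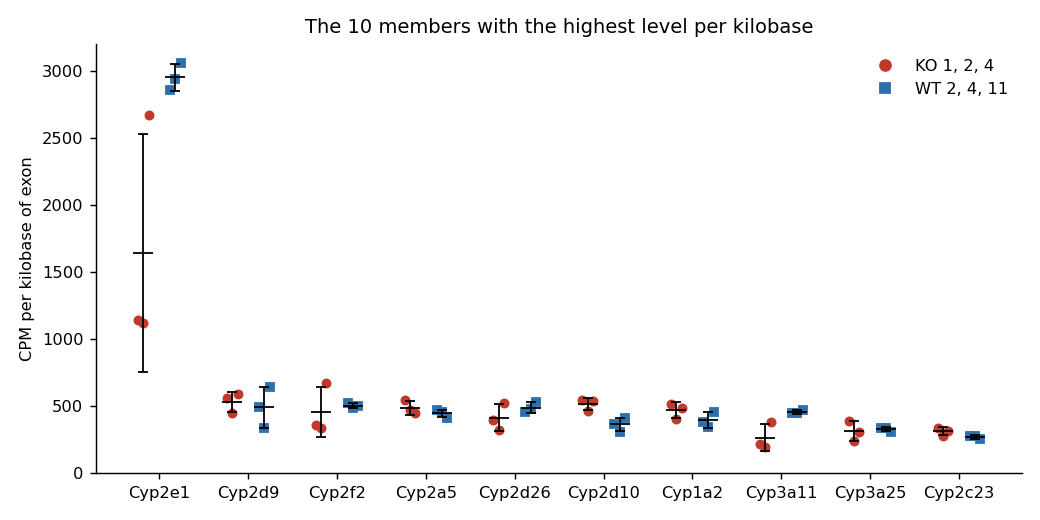
Level per kilobase of exon (y axis, CPM per kb) of the 10 members with the highest mean, in order. Circles are knockout libraries, squares wild-type libraries, and black bars the mean ± SD of 3 libraries; Cyp2e1 and Cyp3a11 show knockout 4 near the wild types and knockout 1 and 2 well below.

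The Cyp2c subfamily held the largest fall among members of at least 100 CPM. Its 15 genes lie on chromosome 19 of mm10, 14 of them in a cluster of 1180 kb from 39007019 to 40187333 and Cyp2c23 beyond it. Cyp2c29 (chr19:39269405-39330713 on the plus strand, ENSMUSG00000003053), an epoxygenase of arachidonic acid, had 135, 187 and 444 CPM in knockout 1, 2 and 4, against 1132, 1153 and 1323 CPM in wild type 2, 4 and 11. The means were 255 ± 165 CPM in knockout and 1203 ± 105 CPM in wild type (SD, n = 3 each; −2.24 ± 0.38 SE, edgeR adjusted p = 0.00758). The groups lay far apart, with knockout 4 the highest knockout. Without knockout 4 the fold change was −2.91. It was called without any one library (adjusted p up to 0.0315) and with knockout 4 alone (−1.44, adjusted p = 0.0431), a fit whose spread comes from wild type only. With the mitochondrial share as a covariate its fold change was −1.05 (edgeR unadjusted p = 0.00772, adjusted p = 0.454).

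Cyp2c70, the enzyme that makes muricholic acids in mice, had 184, 174 and 314 CPM in knockout 1, 2 and 4, against 363, 386 and 472 CPM in wild type 2, 4 and 11. It fell (−0.86 ± 0.25 SE, edgeR adjusted p = 0.0395), and the call was lost when any library other than knockout 4 was left out (adjusted p of 0.0754 to 0.132). Cyp2c55, a gene that CAR and PXR induce, fell at a low level, with 3.05, 1.24 and 2.47 CPM in knockout 1, 2 and 4, against 6.41, 7.09 and 3.85 CPM in wild type 2, 4 and 11 (−1.37 ± 0.37 SE, edgeR adjusted p = 0.0313). That call was lost without knockout 2 (adjusted p = 0.0870), wild type 2 (0.0901) or wild type 4 (0.113). Both were lower in every knockout library than in any wild-type library, as Cyp2c29 was.

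Their neighbours in the cluster had fold changes of either sign and were not called. Cyp2c37 had 482, 526 and 325 CPM in knockouts, against 290.1, 267 and 357 CPM in wild types, with knockout 4 inside the wild-type range. Cyp2c54 had 807, 570.1 and 376 CPM in knockouts, against 344, 362 and 437 CPM in wild types, again with knockout 4 inside that range. The fold changes were 0.54 and 0.62 (edgeR adjusted p = 0.114 and 0.128), and without knockout 4 both were called as higher (0.72 and 0.84, adjusted p = 0.0120 and 0.0102). Cyp2c50, which lies next to Cyp2c54, had 689, 601 and 599.7 CPM in knockouts, against 769.8, 753 and 853 CPM in wild types, with no overlap and no call (−0.33 ± 0.18 SE, edgeR adjusted p = 0.216). Cyp2c67 and Cyp2c68 overlapped between genotypes at 0.17 and 0.16. Cyp2c38 stood at −0.35 and Cyp2c40 and Cyp2c69, both under 7 CPM, at 1.24 and 1.44, none of the 3 called. Cyp2c23, which makes epoxides of arachidonic acid, was the gene of highest level per kilobase in the subfamily. It had 726, 598 and 681 CPM in knockout 1, 2 and 4, against 590.04, 596 and 550.4 CPM in wild type 2, 4 and 11, higher in every knockout than in any wild-type library by a small margin (0.21 ± 0.18 SE, edgeR adjusted p = 0.437). The summed subfamily was 3456, 3037 and 3319 CPM in knockout 1, 2 and 4, against 3897, 4008 and 4368 CPM in wild type 2, 4 and 11, with no overlap but no call (−0.32 ± 0.19 SE, edgeR adjusted p = 0.255). Several of these genes share sequence: 52.8% of the 50-base words of Cyp2c67, 60.3% of those of Cyp2c40 and 30.1% of those of Cyp2c37 occur in another gene, against 4.20% for Cyp2c29, 1.10% for Cyp2c55 and 0% for Cyp2c70. How reads that match several genes were counted is not given in the sources used here, so the levels of Cyp2c67, Cyp2c40 and Cyp2c37 are uncertain. Cyp2c39 was not tested, with 5, 3 and 9 counts in knockouts, against 19, 36 and 10 counts in wild types, Cyp2c65 had 2 counts in all and Cyp2c66 none.

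**Figure D5:**
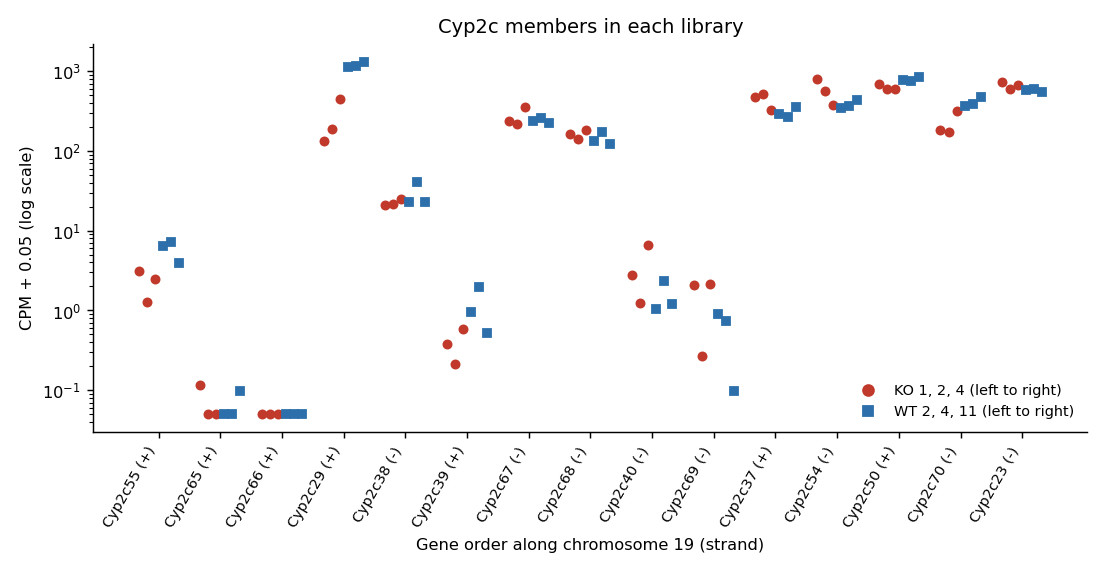
Level of the 15 Cyp2c genes (y axis, CPM + 0.05, log scale) in each library, in their order along chromosome 19, with the strand in brackets. Circles are knockout 1, 2 and 4 and squares wild type 2, 4 and 11, from left to right; Cyp2c29 and Cyp2c70 lie lower in knockout, while Cyp2c37 and Cyp2c54 do not.

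The 250 bases before the start of Cyp2c29 and Cyp2c70 are shown because these are the most abundant Cyp2c genes that fell. They come from RefSeq (GRCm38.p6, the assembly of mm10) and run 5′ to 3′ on the strand of the gene. The RefSeq starts of Cyp2c29 and Cyp2c70 both lie inside the gene spans of GENCODE M21. Cyp2c29 is read from chr19:39286835-39287084 on the plus strand and Cyp2c70 from chr19:40187287-40187536 on the minus strand.
Cyp2c29: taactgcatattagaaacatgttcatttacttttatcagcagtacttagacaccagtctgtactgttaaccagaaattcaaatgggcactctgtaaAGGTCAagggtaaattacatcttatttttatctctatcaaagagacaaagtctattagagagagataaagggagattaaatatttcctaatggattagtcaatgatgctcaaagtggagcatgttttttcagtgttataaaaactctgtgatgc
Cyp2c70: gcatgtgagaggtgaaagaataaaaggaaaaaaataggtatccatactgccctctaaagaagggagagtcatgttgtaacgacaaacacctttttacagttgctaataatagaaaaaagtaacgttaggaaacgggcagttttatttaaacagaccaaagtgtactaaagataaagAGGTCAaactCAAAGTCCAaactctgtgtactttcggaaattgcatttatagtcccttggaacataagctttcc
Capitals mark matches, on either strand, to 4 short words: GCGTG (AHR), AGGTCA (the word that nuclear receptors share), CAAAGTCCA (HNF4) and TTGCNNAA (C/EBP). Cyp2c29 holds 1 match, AGGTCA from 154 to 149 bases before the start. Cyp2c70 holds AGGTCA from 74 to 69 bases and CAAAGTCCA from 64 to 56 bases before the start, with no shared bases. RefSeq windows were at hand for 62 of the 75 members and for 42 of the 51 tested ones. AGGTCA occurred in 4 of 11 members that fell, 0 of 2 that rose and 3 of 29 that were not called, beside 14.0% of all 32851 promoter windows of this length. CAAAGTCCA occurred in 1 of 11, 0 of 2 and 6 of 29, beside 0.384% of all windows. GCGTG occurred in 2 of 11, 1 of 2 and 5 of 29 (28.2% of all windows), and TTGCNNAA in 3 of 11, 1 of 2 and 5 of 29 (9.56%). A member counts once if the window of any of its listed starts matches, while the shares over all windows count each start, so the 2 are unlike units. A match is a run of letters and not a known binding site.

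The Cyp2a and Cyp2b subfamilies lie together on chromosome 7. Of 4 Cyp2a genes, Cyp2a4 fell and the abundant Cyp2a5 and Cyp2a12 were not called. Cyp2a5, which hydroxylates coumarin and nicotine, had 1125, 973 and 926 CPM in knockout 1, 2 and 4, against 968, 941 and 853 CPM in wild type 2, 4 and 11, and the groups overlapped (0.13 ± 0.18 SE, edgeR adjusted p = 0.648; −0.056 when scaled by library totals). Cyp2a12, which re-hydroxylates bile acids, had 874, 723 and 726 CPM in knockout 1, 2 and 4, against 629, 549 and 602 CPM in wild type 2, 4 and 11, higher in each knockout (0.38 ± 0.18 SE, edgeR adjusted p = 0.164). Cyp2a22 had 2.65, 2.47 and 1.99 CPM in knockouts, against 2.28, 3.20 and 2.23 CPM in wild types, with overlap. Cyp2a4, a steroid hydroxylase known as female-biased in mouse liver, had 0.596, 0.752 and 0.301 CPM in knockout 1, 2 and 4, against 2.33, 1.76 and 0.929 CPM in wild type 2, 4 and 11. Its fall was narrow (−1.58 ± 0.49 SE, edgeR adjusted p = 0.0498) and was lost without any library other than wild type 11 (adjusted p of 0.0785 to 0.198), with limma-voom (0.0667) or with mitochondrial genes left out (0.0501); 38.8% of its 50-base words are shared, mainly with Cyp2a5. The windows before the starts of Cyp2a4 and Cyp2a5 are 97.6% identical, while their levels per kilobase were 0.639 and 465 CPM per kb. The Cyp2a sum was 2002, 1699 and 1654 CPM in knockout 1, 2 and 4, against 1601, 1495 and 1459 CPM in wild type 2, 4 and 11, higher in each knockout and not called (0.23 ± 0.19 SE, edgeR adjusted p = 0.406).

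The Cyp2b genes, the classic targets of the phenobarbital-sensing receptor CAR, had at most 2.61 CPM in a library, and 1 of the 5 was tested. Cyp2b10 had 0.596, 0.322 and 0.602 CPM in knockout 1, 2 and 4, against 1.95, 1.01 and 2.18 CPM in wild type 2, 4 and 11, from 9, 6 and 10 counts in knockouts, against 41, 19 and 47 counts in wild types. It fell (−1.76 ± 0.46 SE, edgeR adjusted p = 0.0278), a call that held without knockout 4 or wild type 4 and was lost without any other library (adjusted p of 0.0657 to 0.0972). Cyp2b9, a female-biased gene, was not tested, with 1, 1 and 0 counts in knockouts, against 3, 49 and 11 counts in wild types, so most of its wild-type counts come from wild type 4. Cyp2b13 had 0, 0 and 0 counts in knockouts, against 2, 1 and 0 counts in wild types, and Cyp2b19 and Cyp2b23 had no count. Summed, the 5 genes gave 0.662, 0.376 and 0.602 CPM in knockout 1, 2 and 4, against 2.18, 3.68 and 2.69 CPM in wild type 2, 4 and 11 and fell (−2.38 ± 0.40 SE, edgeR adjusted p = 0.00680). This was the only subfamily sum with several members that was called, beside a background of 8.24% of all rows that fell and 8.78% that rose (17.0% in either direction) in the table with sums. It was called without any one library (adjusted p up to 0.0341).

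In the Cyp2d subfamily, 8 genes on chromosome 15 between 82370527 and 82794294, the abundant members were not called and 2 of lower level fell. Cyp2d9, a testosterone hydroxylase known as male-biased, had 1479, 1189.8 and 1572 CPM in knockout 1, 2 and 4, against 1313, 888 and 1699 CPM in wild type 2, 4 and 11, and the groups overlapped (0.12 ± 0.25 SE, edgeR adjusted p = 0.768; −0.062 when scaled by library totals). Cyp2d10 had 896, 759 and 887 CPM in knockout 1, 2 and 4, against 606, 507 and 677 CPM in wild type 2, 4 and 11, higher in every knockout (0.51 ± 0.19 SE, edgeR adjusted p = 0.0919). Cyp2d26 and Cyp2d22 had fold changes of −0.24 and −0.25, both with overlap. Cyp2d40 fell, with 31.9, 26.96 and 47.4 CPM in knockout 1, 2 and 4, against 52.5, 55.04 and 76.1 CPM in wild type 2, 4 and 11 (−0.79 ± 0.24 SE, edgeR adjusted p = 0.0467). Cyp2d11 fell as well, with 0.728, 0.430 and 2.05 CPM in knockout 1, 2 and 4, against 3.23, 2.99 and 4.09 CPM in wild type 2, 4 and 11 (−1.69 ± 0.49 SE, edgeR adjusted p = 0.0404), although 37.2% of its 50-base words are shared, mainly with Cyp2d10. Both calls held without knockout 4, where Cyp2d11 stood at −2.59, and were lost without any other library (adjusted p of 0.0759 to 0.143 and 0.0817 to 0.124). Cyp2d12 and Cyp2d34 were not tested, with at most 11 counts in a library. The Cyp2d sum was 3342, 2707 and 3716 CPM in knockout 1, 2 and 4, against 3052, 2542 and 3685 CPM in wild type 2, 4 and 11, with full overlap (0.074 ± 0.22 SE, edgeR adjusted p = 0.844), and it stood at −0.11 when scaled by library totals.

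Of 3 tested Cyp2j genes, Cyp2j5 fell and Cyp2j9 rose. Cyp2j5, an epoxygenase of arachidonic acid in liver and kidney, had 230.5, 258 and 369.9 CPM in knockout 1, 2 and 4, against 495, 485 and 429 CPM in wild type 2, 4 and 11. It fell (−0.72 ± 0.21 SE, edgeR adjusted p = 0.0440), and the call was lost when any library other than knockout 4 was left out (adjusted p of 0.0656 to 0.142). Cyp2j9 (chr4:96568429-96591578 on the minus strand), described as a fatty acid hydroxylase in mouse brain, had 38.3, 15.2 and 10.05 CPM in knockout 1, 2 and 4, against 4.32, 4.85 and 6.64 CPM in wild type 2, 4 and 11. It rose (1.9998 ± 0.43 SE, edgeR adjusted p = 0.0147), with knockout 1 far above the others; without knockout 1 the fold change was 1.25 (adjusted p = 0.0348). Its order among the knockouts was that of their mitochondrial shares, an order over 3 libraries whose cause was not tested. The call was lost without wild type 4 (adjusted p = 0.0540), and with the mitochondrial share as covariate, its fold change was 0.22 (edgeR unadjusted p = 0.550). Less than 1% of the 50-base words of either gene are shared. Cyp2j6 overlapped between genotypes (0.32), Cyp2j8 had 10, 3 and 6 counts in knockouts, against 0, 0 and 2 counts in wild types, and Cyp2j7, Cyp2j11, Cyp2j12 and Cyp2j13 had no count. The Cyp2j sum followed its most abundant member, with 365, 333 and 447 CPM in knockout 1, 2 and 4, against 569.7, 554 and 479 CPM in wild type 2, 4 and 11 (−0.49 ± 0.19 SE, edgeR adjusted p = 0.0992), and was called without knockout 4 (−0.63, adjusted p = 0.0154). The RefSeq window before the start of Cyp2j9 (chr4:96591486-96591735 on the minus strand) is shown for this rise, with capitals as above. It holds GCGTG from 171 to 167 bases and a C/EBP word from 39 to 32 bases before the start. That start and the C/EBP word lie inside the gene span of GENCODE M21 given above.
Cyp2j9: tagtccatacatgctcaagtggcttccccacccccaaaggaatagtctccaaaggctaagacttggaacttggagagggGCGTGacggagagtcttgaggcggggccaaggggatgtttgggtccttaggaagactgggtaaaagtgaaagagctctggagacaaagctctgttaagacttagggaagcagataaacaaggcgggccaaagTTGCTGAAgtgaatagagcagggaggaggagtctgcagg

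Cyp2u1, a single gene on chromosome 3 (chr3:131288441-131303227 on the minus strand) that hydroxylates long-chain fatty acids, showed the smallest p in the family. It had 63.6, 62.8 and 53.1 CPM in knockout 1, 2 and 4, against 25.2, 17.1 and 26.3 CPM in wild type 2, 4 and 11, and the knockout libraries lay close together and well above the wild types. The means were 59.8 ± 5.84 CPM in knockout and 22.9 ± 5.02 CPM in wild type (SD, n = 3 each; 1.39 ± 0.20 SE, edgeR adjusted p = 0.00495). The rise was called without any one library (adjusted p up to 0.0261), and with the mitochondrial share as a covariate its fold change was 1.16 (edgeR unadjusted p = 0.00402, adjusted p = 0.416). Of its 50-base words 12.3% occur in another gene, all outside its own subfamily, and its level is uncertain to that extent. Cyp2r1, a vitamin D hydroxylase, had 8.81, 8.81 and 10.95 CPM in knockout 1, 2 and 4, against 14.96, 17.01 and 10.5 CPM in wild type 2, 4 and 11 (−0.57 ± 0.22 SE, edgeR adjusted p = 0.100), and was called as lower without wild type 11 (−0.76, adjusted p = 0.0484). Cyp2s1, Cyp2t4 and Cyp2w1 did not pass the filter, with up to 13, 6 and 0 counts in a library.

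Cyp3a genes, the main drug-metabolising P450s of the liver and targets of PXR, had 5 tested genes, of which 2 fell and 0 rose. Cyp3a11, the most abundant, had 1109, 987 and 1938 CPM in knockout 1, 2 and 4, against 2275, 2263 and 2409 CPM in wild type 2, 4 and 11. Knockout 1 and 2 lay far below the wild types and knockout 4 just below them (−0.78 ± 0.26 SE, edgeR adjusted p = 0.0629). It was called without knockout 4 (−1.16, adjusted p = 0.000921) and with DESeq2, limma-voom, library totals and no low-count filter (adjusted p of 0.00434 to 0.0373). Cyp3a13, which lies on chromosome 5 (chr5:137892932-137921619 on the minus strand) apart from the other Cyp3a genes, had 65.9, 73.6 and 89.95 CPM in knockout 1, 2 and 4, against 129, 146 and 179.6 CPM in wild type 2, 4 and 11. It fell (−0.99 ± 0.20 SE, edgeR adjusted p = 0.0120), shares no 50-base word with another gene, and was called without any one library (adjusted p up to 0.0453). Cyp3a25 had 811, 498 and 629 CPM in knockout 1, 2 and 4, against 693, 706 and 640.2 CPM in wild type 2, 4 and 11, with overlap (−0.073 ± 0.21 SE, edgeR adjusted p = 0.837). Its close copy Cyp3a59 had 12.6, 13.8 and 18.4 CPM in knockout 1, 2 and 4, against 32.4, 36.4 and 21.2 CPM in wild type 2, 4 and 11 and fell (−1.01 ± 0.24 SE, edgeR adjusted p = 0.0198). That call held without knockout 4 or wild type 11 and was lost without any other library (adjusted p of 0.0654 to 0.0821), and 30.00% of the 50-base words of Cyp3a59 are shared, mainly with Cyp3a25. Cyp3a16, a gene of young and female liver, had 0, 0 and 7 counts in knockouts, against 20, 16 and 20 counts in wild types (edgeR adjusted p = 0.0559), Cyp3a44 had at most 3 counts in a library, and Cyp3a57 had none. The Cyp3a sum was 1999, 1573 and 2676 CPM in knockout 1, 2 and 4, against 3129.9, 3152 and 3251 CPM in wild type 2, 4 and 11, without overlap (−0.61 ± 0.23 SE, edgeR adjusted p = 0.0883), and was called without knockout 4 (−0.84, adjusted p = 0.00562).

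Cyp3a59 fell and Cyp3a25 was not called, and the 250 bases before their starts are nearly alike, so both windows are shown; the difference between the 2 fold changes was not tested. The RefSeq windows (GRCm38.p6) are chr5:146009619-146009868 on the minus strand for Cyp3a25, at the first of its 2 listed starts, and chr5:146079008-146079257 on the plus strand for Cyp3a59. Capitals mark bases that differ from, or have no partner in, the aligned other window.
Cyp3a25: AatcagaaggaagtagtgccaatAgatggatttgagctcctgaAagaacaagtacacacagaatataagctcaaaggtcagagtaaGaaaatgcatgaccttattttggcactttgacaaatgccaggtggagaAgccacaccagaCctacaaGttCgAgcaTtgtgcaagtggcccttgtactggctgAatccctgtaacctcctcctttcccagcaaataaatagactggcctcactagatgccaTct
Cyp3a59: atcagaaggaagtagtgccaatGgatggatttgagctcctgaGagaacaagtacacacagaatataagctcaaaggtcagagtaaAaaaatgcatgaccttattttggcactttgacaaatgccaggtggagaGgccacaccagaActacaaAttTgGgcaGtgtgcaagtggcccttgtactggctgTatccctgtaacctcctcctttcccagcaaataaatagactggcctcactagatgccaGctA
The 2 windows are 94.8% identical, with 11 substituted bases and 2 unpaired ones. Over 85 pairs of tested members of 1 subfamily the median identity was 53.9%, beside 49.6% over 776 pairs from different subfamilies. Other close pairs had fold changes of the same or of opposite sign. Cyp2c68 and Cyp2c69 (91.3% identical) stood at 0.16 and 1.44, and Cyp2d10 and Cyp2d9 (82.7%) at 0.51 and 0.12. Cyp2c37 and Cyp2c50 (84.3%) stood at 0.54 and −0.33, Cyp2a12 and Cyp2a22 (82.8%) at 0.38 and −0.12, and Cyp2d11 and Cyp2d9 (82.3%) at −1.69 and 0.12.

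The Cyp4a genes, fatty acid hydroxylases that PPAR-alpha induces, were not called. Cyp4a10 had 98.2, 123 and 141 CPM in knockout 1, 2 and 4, against 123, 169.6 and 153 CPM in wild type 2, 4 and 11 (−0.30 ± 0.20 SE, edgeR adjusted p = 0.317). Cyp4a14 had 15.2, 59.5 and 55.96 CPM in knockout 1, 2 and 4, against 55.99, 184 and 149 CPM in wild type 2, 4 and 11 and varied widely in both genotypes, wild type 2 lying within the knockout range (−1.57 ± 0.50 SE, edgeR adjusted p = 0.0553). Without wild type 2 it was called as lower (−1.94, adjusted p = 0.0294), as it was without knockout 4 (−1.80, 0.0488). Cyp4a31 and Cyp4a32 stood at −0.18 and 0.11 with overlap, and Cyp4a29 had no count. The Cyp4a sum was 137, 194 and 215 CPM in knockout 1, 2 and 4, against 196, 368 and 323 CPM in wild type 2, 4 and 11 (−0.70 ± 0.26 SE, edgeR adjusted p = 0.0879), and was called without knockout 4 (−0.85, adjusted p = 0.0428). Adding the paralogs Cyp4a12a and Cyp4a12b, known as male-biased and higher in knockout 1 and 4 than in any wild type, turned its fold change to 0.048 (adjusted p = 0.884). Cyp4b1, which is best known from lung, had 8.54, 5.58 and 5.29 CPM in knockouts, against 10.3, 8.85 and 8.92 CPM in wild types, without overlap and not called (−0.53 ± 0.24 SE, edgeR adjusted p = 0.143). Cyp4x1 had no count.

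In the Cyp4f subfamily 1 gene fell and 1 rose. Cyp4f14, a hydroxylase of leukotrienes and vitamin E, had 97.9, 111 and 202 CPM in knockout 1, 2 and 4, against 236, 256 and 259 CPM in wild type 2, 4 and 11. It fell (−0.87 ± 0.26 SE, edgeR adjusted p = 0.0446), and the call was lost when any library other than knockout 4 was left out (adjusted p of 0.0925 to 0.142). Cyp4f15 and Cyp4f13 stood at 0.23 and 0.31 (edgeR adjusted p = 0.418 and 0.226), Cyp4f17 and Cyp4f16 at 0.16 and −0.42, and Cyp4f37, Cyp4f39 and Cyp4f40 were not tested. Cyp4f18, a leukotriene hydroxylase known from mouse neutrophils, had 1.19, 1.34 and 0.902 CPM in knockout 1, 2 and 4, against 0.380, 0.373 and 0.418 CPM in wild type 2, 4 and 11, from 18, 25 and 15 counts in knockouts, against 8, 7 and 9 counts in wild types. It rose (1.54 ± 0.41 SE, edgeR adjusted p = 0.0316), a call that was lost without any library other than knockout 4 (adjusted p of 0.0731 to 0.131), with library totals (0.0516) or with no low-count filter (0.0564). Neutrophil markers also rose: all 3 tested of 5 (S100a8, S100a9 and Csf3r) were called, the 5 summing to 6.80 to 17.2 CPM in knockout and 2.61 to 3.39 CPM in wild type, while Ly6g, a defining marker, had 1 count in all. B cell markers moved the same way, with 4 of 5 rising and sums of 9.09 to 16.5 CPM in knockout and 3.18 to 3.76 CPM in wild type. The part of these cells in the rise of Cyp4f18 was not tested. Cyp4v3, a fatty acid hydroxylase whose human counterpart is a retinal disease gene, had 459, 364 and 306 CPM in knockout 1, 2 and 4, against 346, 279.8 and 297 CPM in wild type 2, 4 and 11, with overlap (0.29 ± 0.20 SE, edgeR adjusted p = 0.338). The Cyp4f sum was 398, 339.6 and 438 CPM in knockout 1, 2 and 4, against 449, 456 and 489 CPM in wild type 2, 4 and 11 (−0.25 ± 0.18 SE, edgeR adjusted p = 0.359).

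Family 1 holds the targets of the dioxin receptor AHR. Cyp1a2, which oxidises caffeine and aromatic amines, had 1039.7, 809.96 and 977 CPM in knockout 1, 2 and 4, against 769.9, 695 and 920.2 CPM in wild type 2, 4 and 11, with overlap (0.25 ± 0.20 SE, edgeR adjusted p = 0.413). Cyp1a1, which is low in untreated liver, had 2.58, 12.7 and 0.782 CPM in knockout 1, 2 and 4, against 1.66, 1.12 and 1.49 CPM in wild type 2, 4 and 11. Knockout 2 stood far above every other library while knockout 4 was the lowest (1.91 ± 0.76 SE, edgeR adjusted p = 0.105). Its fold change was 0.23 without knockout 2 (adjusted p = 0.805), −0.86 with knockout 4 alone and 2.41 without knockout 4 (adjusted p = 0.0115). Cyp1b1, which is mostly made outside hepatocytes, had 1.46, 1.88 and 0.241 CPM in knockouts, against 0.285, 0.587 and 1.25 CPM in wild types (0.74 ± 0.69 SE, edgeR adjusted p = 0.476). The Cyp1a sum was 1042, 823 and 977 CPM in knockout 1, 2 and 4, against 772, 696 and 922 CPM in wild type 2, 4 and 11, close to Cyp1a2 alone (0.25 ± 0.20 SE, edgeR adjusted p = 0.397). Among 5 tested AHR targets that are not members, Ugt1a6a, a glucuronosyltransferase, rose (1.37 ± 0.27 SE, edgeR adjusted p = 0.0119) and 0 fell, and Ahr itself stood at −0.15 (adjusted p = 0.643).

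Members were also grouped by where and in which sex they are known to be high. Of 8 genes known as pericentral (Cyp1a2, Cyp2a5, Cyp2c29, Cyp2c37, Cyp2c50, Cyp2c54, Cyp2e1 and Cyp3a11), Cyp2c29 fell and 0 rose, with a median of −0.10, and their sum was 7068 to 11350.2 CPM in knockout and 12719 to 13754 CPM in wild type. Cyp2e1, which was not called, was the largest part of that sum (means of 3549 CPM in knockout and 6376 CPM in wild type). Fold changes were positive for Cyp1a2, Cyp2a5, Cyp2c37 and Cyp2c54 and negative for Cyp2c29, Cyp2c50, Cyp2e1 and Cyp3a11. Pericentral markers outside the family summed to 1495 to 1847 CPM in knockout and 1469 to 1669 CPM in wild type; of the 7, Lhpp (0.67) and Axin2 (1.15) rose and 0 fell, and Glul, the glutamine synthetase of the innermost cells, stood at 0.0019. Of the 7 periportal markers Hsd17b13 fell (−0.94) and 0 rose. The calls of Lhpp, Axin2 and Hsd17b13 were each lost in 4 or 5 of the 6 fits without 1 library. Of 6 tested female-biased members 2 fell, Cyp2a4 and Cyp2b10, and 0 rose, while of the 2 tested male-biased members Cyp2u1 rose and Cyp2d9 was not called, where 8.29% of all tested genes fell and 8.76% rose. Cyp2a4 and Cyp2b10 had at most 2.33 CPM in a library, and their calls held in 1 and 2 of the 6 fits without 1 library. The 4 female-biased members not called had fold changes of either sign: Cyp3a16 (−2.65), Cyp4a14 (−1.57), Cyp2c40 (1.24) and Cyp2c69 (1.44). By position, the 75 genes lie on 9 chromosomes, and 0 are on chromosome 11, where Rtn4 lies. Of the tested members on chromosomes 19, 15 and 5, 3 of 12, 2 of 6 and 2 of 5 fell, and 0 rose, beside the same 8.29% and 8.76%. On chromosomes 7, 17 and 4, 2 of 9, 1 of 6 and 1 of 8 fell. Rises were 1 of 8 on chromosome 4, 1 of 2 on chromosome 8 and 1 of 1 on chromosome 3, and 0 of 2 on chromosome 9 were called.

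Among 16 tested genes of electron supply and of heme synthesis and breakdown, 4 fell and 1 rose, beside 8.29% and 8.76% of all genes, and 11 were not called. Por had 297, 369 and 401 CPM in knockout 1, 2 and 4, against 375, 479 and 536 CPM in wild type 2, 4 and 11, with overlap (−0.38 ± 0.20 SE, edgeR adjusted p = 0.214). Alas1, the rate-limiting enzyme of heme synthesis, had 259, 167 and 845 CPM in knockout 1, 2 and 4, against 352, 969 and 335 CPM in wild type 2, 4 and 11; knockout 4 and wild type 4 were high and the other 4 libraries low, so the genotypes overlapped (−0.38 ± 0.57 SE, edgeR adjusted p = 0.669). The median of the 16 was −0.34. The 3 of smallest p were Hmox2, a heme oxygenase, which breaks heme down (−1.58 ± 0.31 SE, edgeR adjusted p = 0.0107), Cpox, a late heme synthesis enzyme (−0.90 ± 0.19 SE, edgeR adjusted p = 0.0124), and Fech, which inserts the iron (−0.79 ± 0.18 SE, edgeR adjusted p = 0.0189). Alad, an early enzyme of the same path, was the rise (0.86), and Cyb5b, an outer mitochondrial cytochrome b5, the other fall (−0.72), both named after their values were seen. Hmox2 was called without any one library (adjusted p up to 0.0404); Cpox was lost without wild type 4 (0.0613), Alad without knockout 1, wild type 2 or wild type 4 (up to 0.107), and Fech and Cyb5b without knockout 1, knockout 2, wild type 2 or wild type 4 (up to 0.0886 and 0.121).

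Among receptors and transcription factors of P450 genes, Ppara fell. This fatty acid receptor, which drives Cyp4a genes, had 24.4, 20.9 and 25.1 CPM in knockout 1, 2 and 4, against 88.5, 75.1 and 44.96 CPM in wild type 2, 4 and 11 (−1.57 ± 0.24 SE, edgeR adjusted p = 0.00578). Nr1i2, which encodes PXR, rose, with 147, 119 and 111 CPM in knockout 1, 2 and 4, against 75.7, 77.8 and 94.4 CPM in wild type 2, 4 and 11 (0.60 ± 0.19 SE, edgeR adjusted p = 0.0485). Nr1i3, which encodes CAR, stood at 0.28, Rxra, their shared partner, at −0.15, and Hnf4a at 0.031 (edgeR adjusted p = 0.321, 0.597 and 0.925). In all, 4 of 29 tested genes of the list fell and 2 rose, beside 8.29% and 8.76% of all tested genes (median −0.12), Nr5a2, a nuclear receptor, being among the falls (−0.80). Ppara was called without any one library (adjusted p up to 0.0293). Nr5a2 was lost without knockout 1, wild type 2 or wild type 4 (up to 0.103), and Nr1i2 without any library other than knockout 4 (up to 0.202). Of 16 PPAR-alpha targets outside the family Ehhadh, a peroxisomal fatty acid enzyme, fell (−1.02 ± 0.24 SE, edgeR adjusted p = 0.0189; lost without knockout 1, knockout 2, wild type 4 or wild type 11, up to 0.0666) and 0 rose (median −0.22). Of 13 tested CAR and PXR targets outside the family Ugt1a1, the bilirubin glucuronosyltransferase, fell (−2.93 ± 0.68 SE, edgeR adjusted p = 0.0193; lost without knockout 1 or knockout 2, up to 0.0592) and 0 rose; Ugt1a1 and Ugt1a6a lie in 1 locus and share exons, so their counts are uncertain. Of 8 epoxide hydrolases, flavin monooxygenases and aldehyde oxidases tested, 0 were called by edgeR, with Ephx2 at −0.16 and Fmo5 at −0.52. Of 14 tested P450 genes of other families, Cyp39a1, an oxysterol hydroxylase, fell (−0.98 ± 0.28 SE, edgeR adjusted p = 0.0400; lost without any library other than knockout 4, up to 0.149) and 0 rose (median −0.22).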

How the data were processed

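The authors deposited raw, unnormalized counts per gene as 1 table of 6 libraries. The genome build is mm10, as named in the submitters' processing notes, while the aligner, counter, annotation or use of strand is not given in the sources used here. Per the labels' protocols, RNA was extracted with RNeasy reagents and libraries were made with a SMARTer kit. The gene rule was applied to the symbols of the table. Counts were analysed in R 4.3.3 with edgeR 4.0.16 (quasi-likelihood F test, TMM, filterByExpr, two-sided, no covariate) over all genes, and SE is the absolute log2 fold change over the square root of F. For subfamily sums, member counts were added before the same test; CPM of sums use the gene table's scaling. Exon lengths, positions and 50-base words come from GENCODE M21 (mm10). Alternatives used DESeq2 1.42.0 and limma 3.58.1. On simulated counts for this comparison (13304 genes) the test recovered 28.0% of 100 genes changed 2-fold and 85.0% of 100 changed 4-fold, with 6 false among 119 calls.

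Replicates of 1 genotype differed by 21.0 to 170.6 chi-square units per degree of freedom, so each library counts as 1 sample. The labels call the samples livers of mice; p-values measure the spread between these libraries. Numbers 2 and 4 occur in both genotypes, and nothing in the labels says that they mark a litter. Members, lists and tests were chosen with earlier results of these data known. Members named with values are the called ones, the 10 highest per kilobase and the highest of each subfamily; the rest of the family was added to account for every gene. From the other lists the rule takes up to 3 called genes by p, and Por, Alas1, Ppara, Nr1i2, Nr1i3, Ahr, Hnf4a and Rxra always. Of the regulator list, 1 gene that this rule takes is not reported here.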

Additional observations from a re-analysis of the deposited data

Results flagged for a closer look

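The pseudogene row Cyp2d37-ps, which lies outside the gene rule, held a signal above its level in every wild-type library. It had 92.4, 68.4 and 66.3 CPM in knockout 1, 2 and 4, against 56.2, 41.2 and 57.2 CPM in wild type 2, 4 and 11. The means were 75.7 ± 14.5 CPM in knockout and 51.5 ± 8.95 CPM in wild type (SD, n = 3 each), and edgeR did not call the difference (0.55 ± 0.20 SE, edgeR adjusted p = 0.0845).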

How the results depend on the processing

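The count of called genes was 2268 and ranged from 630 to 4046 when 1 library was left out; over the same fits the members that fell ranged from 2 to 15, the members that rose from 1 to 6, the subfamily sums that fell from 1 to 6, and 1 sum rose in each. With knockout 4 alone the numbers in that order were 25, 1, 0, 0 and 0, and with the mitochondrial share as a covariate all were 0 (edgeR; 1146 genes and 7 members had an unadjusted p under 0.05; DESeq2 and limma-voom were not fitted with the covariate). With no low-count filter 17 members fell, 6 rose and 4 sums fell. DESeq2 and library totals gave 4 sums that fell each, and limma-voom 2, against 1. All these counts of sums include subfamilies of 1 gene, such as Cyp2e and Cyp2f, whose genes are in the member counts as well. In the comparison as reported, the sum that rose was Cyp2u1 alone. The replicate block, fitted on the label numbers, gave 1686 called genes, with 4 members that fell and 2 that rose; the deviations of same-numbered libraries correlated at −0.05 (number 2) and 0.06 (number 4), so the numbers were not taken as pairs.

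Of the 51 tested members, the sign differed in 6 with library totals, 5 with the replicate block, 9 with knockout 4 alone, 15 with the covariate, 1 with limma-voom and up to 4 without 1 library; 0 of these were called in the comparison as reported. Among the members that the rule names and the sums, they were Cyp2a5, Cyp2d9 and the Cyp2d sum with library totals (−0.056, −0.062 and −0.11) and Cyp2a5 with the replicate block (−0.0079). With knockout 4 alone they included, among those, Cyp1b1 (−1.54), Cyp2d26 (0.099), Cyp2f2 (0.42) and Cyp4v3 (−0.0092). With the covariate they included, among those, Cyp1b1 (−0.92), Cyp2a5 (−0.10), Cyp2d26 (0.050), Cyp2e1 (0.023), Cyp2f2 (0.52), Cyp2g1 (0.096), Cyp4a10 (0.12) and Cyp4v3 (−0.21). With 1 library left out, the Cyp2d sum ranged from −0.063 to 0.21, Cyp2d9 from −0.10 to 0.35, Cyp2f2 from −0.55 to 0.033 and Cyp3a25 from −0.28 to 0.082. The Cyp4a sum was 0.048 with its letter-suffixed paralogs. The cause of these differences was not tested. At this depth members under about 1 CPM rest on a few counts, and recovery of 2-fold changes was 28.0% in simulation. That simulation changed 100 genes 2-fold and 100 genes 4-fold, while 2268 genes were called in the data. It gave both genotypes the same spread, so recovery in these data can differ.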

Other observations

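Paralogs of Cyp4a that lie outside the gene rule had positive fold changes and were not called. Cyp4a12a, known as male-biased in mouse liver, had 324, 163 and 223 CPM in knockout 1, 2 and 4, against 189, 112 and 117 CPM in wild type 2, 4 and 11 (0.77 ± 0.28 SE, edgeR adjusted p = 0.0871), and Cyp4a12b had 108, 52.6 and 81.9 CPM in knockout 1, 2 and 4, against 59.6, 41.7 and 44.8 CPM in wild type 2, 4 and 11 (0.73 ± 0.26 SE, edgeR adjusted p = 0.0757). In both, wild type 2 lay above knockout 2. The female-specific pair Cyp3a41a and Cyp3a41b had no count in any of the 6 libraries.

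Single libraries stood apart from the rest of their genotype in several genes tied to P450 levels and bile acids. Alas1 was at 845 CPM in knockout 4 and 969 CPM in wild type 4, and at most 352 CPM elsewhere. Onecut1, a hepatocyte factor, was at 46.3 CPM in wild type 4 and at most 2.14 CPM in the other 5 libraries. Cyp1a1 was at 12.7 CPM in knockout 2 and at most 2.58 CPM in the other 5. Cyp8b1, which sets the make-up of bile acids, was at 152 CPM in knockout 4 and 36.2 and 26.8 CPM in knockout 1 and 2. These genes were picked after their values were seen.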
